A study of Mus musculus with 6 samples.

Results

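The genes described here are 10 genes of deoxynucleotide salvage and synthesis, measured in wild type (WT) murine pre-B cells with and without ionizing radiation (IR). They are *Dck*, *Dguok*, *Tk1*, *Tk2*, *Rrm1*, *Rrm2*, *Rrm2b*, *Tyms*, *Samhd1* and *Dctd*, taken as every probe set whose gene name in the platform annotation is one of these. That gave 10 of the 18193 genes with a name of their own on the array, by 26 of its 45037 probe sets, and 1 further probe set that the annotation shares between *Tyms* and its pseudogene was left out. Irradiated cells received 1 Gy of γ-rays at 0.72 Gy per minute and were collected 2 hours later, and control cells were mock-irradiated (0 Gy). Both groups consisted of the same 3 v-abl-transformed lines, which carry an Eμ-Bcl2 transgene, and both had been held for 48 hours in 3 μM STI-571, an inhibitor of the Abl kinase that stops these lines before S phase. Bcl2 protects cells from apoptosis. Each line was hybridized once per dose to an Affymetrix array of the whole mouse genome (6 arrays, n = 3 lines per dose), and a line is called here by its replicate number.

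Cells build DNA from deoxynucleoside triphosphates (dNTPs), which they obtain by a pair of routes. In the de novo route, ribonucleotide reductase, a complex of the large subunit Rrm1 with the small subunit Rrm2 or Rrm2b, reduces ribonucleotides, and thymidylate synthase (Tyms) makes thymidylate from the product that dCMP deaminase (Dctd) can supply. In the salvage route, kinases phosphorylate deoxynucleosides taken up by the cell or released within it. Dck acts in the cytosol and nucleus, Tk1 in the cytosol, and Tk2 and Dguok in mitochondria, while Samhd1 breaks dNTPs down again. Tk1, Rrm2 and Tyms are known as products of cycling cells, whereas Rrm2b, also called p53R2, serves resting cells and mitochondria and is known as a p53 target. Mice without Dck lack most of their lymphocytes.

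The genes were chosen by their pathway and with signals of these same arrays in view, in which the falls of *Dck* and *Rrm2b* after 1 Gy were already known. Changes of the 10 genes after 1 Gy are therefore given as a description, with counts and standard errors but no p-value. Values are signals in arbitrary units, and a probe set was tested when it reached 100 on at least 1 array, as 21 of the 26 did, with each of the 10 genes represented. The test across all 21762 such probe sets was limma on log2 signals, with dose as the only factor, and a probe set or gene is called when its adjusted p is below 0.05. Standard errors are from this fit unless the line is said to be in the fit, and so include the spread between lines. Signals of different probe sets are not compared with each other, since each has its own scale.

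On every array, 41.7% to 43.8% of probe sets reached a signal of 100. Of 10 markers of pre-B cells, 9 were on the array under a single gene name and all 9 were tested, with summed signals of 79348 to 107330 at 1 Gy and 100530 to 106110 at 0 Gy, and 2 of them, *Rag1* and *Rag2*, were called lower at 1 Gy. All 6 T cell, 3 erythroid and 4 stromal markers on the array stayed under 100 throughout. Of 6 myeloid markers, 5 did so too, and the summed myeloid signal was 359.6 to 476 at 1 Gy against 261.8 to 324 at 0 Gy, through *Itgam* (234.6 to 342 against 130.1 to 163). Of 3 plasma cell markers, *Jchain* stayed under 100, and the summed signal was 764 to 1523 at 1 Gy and 727 to 1769 at 0 Gy. The 3' to 5' signal ratio of beta-actin, which reports on RNA integrity, averaged 1.32 ± 0.0565 (SD, n = 3) at 1 Gy and 1.45 ± 0.051 at 0 Gy. Each line had the lower ratio at 1 Gy, and a two-sided exact permutation test gave p = 0.1, below which 3 arrays against 3 cannot go. The ratio of Gapdh was 0.793 ± 0.0077 at 1 Gy and 0.820 ± 0.0705 at 0 Gy (exact permutation p = 0.9). What part these differences have in the values below was not tested. One array stood apart in cell cycle genes. Of 21 genes of S phase and replication, 20 had their highest signal on the 0 Gy array of line 1, whereas 17.6% of all 9664 tested genes did. The summed signal of the 21 genes was 52827 on that array and 16741 to 29804 on the other 5. For the members this array is given separately.

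All 10 genes had a lower mean log2 signal at 1 Gy than at 0 Gy, as had 60.3% of the 9664 tested genes, each by its brightest probe set. In each of the 3 lines 6 of the 10 were lower, as were 41.4% of tested genes. *Tyms* and *Dctd* passed the filter only through a 0 Gy array, the dose at which they were higher, and of the 8 genes that reached 100 at both doses 5 were lower in each line. The arrays of the 2 doses did not overlap for 4 genes, *Dck*, *Tk2*, *Dguok* and *Rrm2b*, against a background of 20.6% of genes that were lower without overlap. With dose as the only factor, 2 of the 10 genes were called lower, *Dck* and *Rrm2b*, and 0 higher, where 3.24% of genes were called lower and 2.12% higher. With the cell line as a replicate block, 5 were called lower (*Dck*, *Rrm2b*, *Tk2*, *Dguok* and *Samhd1*) and 0 higher, against 14.7% and 6.63% of all genes. Leaving out any 1 array or line ended the call of *Dck*, and that of *Rrm2b* was kept, among these settings, only without the 0 Gy array of line 1. Of the 21 tested probe sets, 5 were called lower with dose alone and 9 with the block, where 2.55% and 11.5% of all tested probe sets were. At an unadjusted p under 0.05, 4 of the 10 genes were lower and 0 higher in the fit without the block, against 16.7% and 8.39% of all genes. The median log2 difference was -0.61 over the 10 genes and over those 8, and that of all tested genes was -0.11. Because the list was drawn up with the fall of *Dck* and *Rrm2b* in view, nothing is read from these shares. In RNA from whole cultures, fewer cells that express a gene and less RNA of that gene per cell cannot be told apart.

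**Figure D1:**
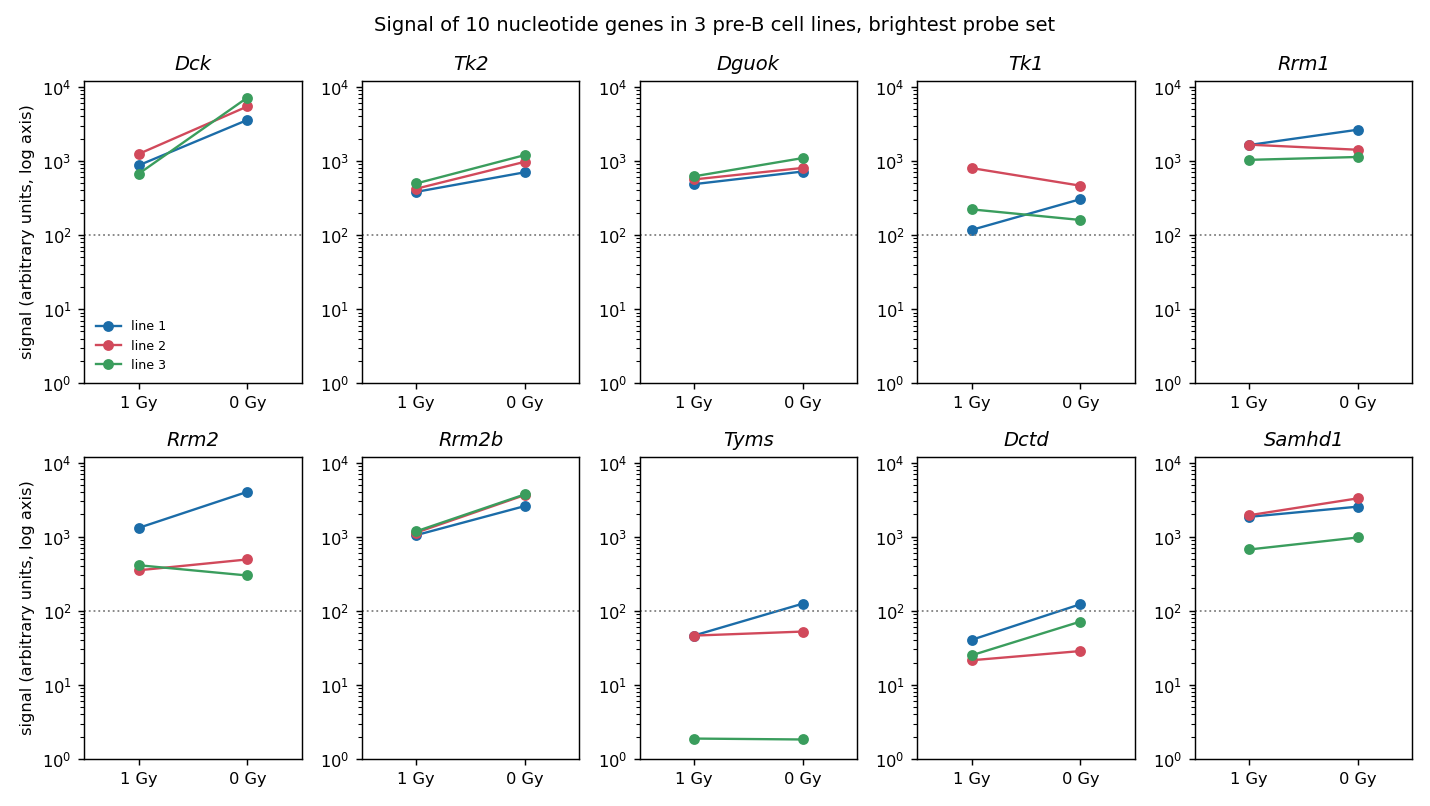
Signal of each of the 10 genes by its brightest probe set on the vertical axis (log scale, arbitrary units, with 100 dotted) against dose on the horizontal axis, 1 Gy at left. Colours mark the 3 cell lines, whose arrays are connected. All 3 lines are lower at 1 Gy for Dck, Tk2, Dguok, Rrm2b, Dctd and Samhd1, whereas the lines cross or diverge for Tk1, Rrm1, Rrm2 and Tyms.

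*Dck*, the deoxycytidine kinase that also activates drugs such as cytarabine, had the deepest fall of the 10. Its brightest probe set had signals of 873, 1242 and 671 in lines 1, 2 and 3 at 1 Gy, against 3581, 5452 and 7174 in the same lines at 0 Gy. The highest irradiated array was thus far below the lowest mock-irradiated one. The signal was 4.10-fold lower in line 1, 4.39-fold lower in line 2 and 10.7-fold lower in line 3. The log2 difference was -2.53 with a standard error of 0.34, and among the log2 differences of the 9664 tested genes it ranked 16 from the lowest. Means were 929 ± 289.8 at 1 Gy and 5402 ± 1797 at 0 Gy (SD, n = 3 lines). At 0 Gy the 3 lines differed by 2.00-fold at most. Line 3 had the highest *Dck* signal at 0 Gy in all 3 probe sets of the gene, and at 1 Gy it was lowest in this one and highest in the other 2.

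The other probe sets of *Dck* were lower in each line too. The second brightest read 112, 215 and 241 in lines 1, 2 and 3 at 1 Gy, against 828, 1236 and 2385 at 0 Gy (log2 difference -2.90, standard error 0.47). The dimmest read 51.2, 82.6 and 89.2 at 1 Gy, all under 100, against 286, 505.5 and 690.3 at 0 Gy (log2 difference -2.68, standard error 0.39). With 3 probe sets in 3 lines, the 9 differences within a line ran from -3.42 to -2.04 on the log2 scale. Line 3 had the largest fall in all 3 probe sets, at -3.42, -3.31 and -2.95 from the brightest to the dimmest. Without the 0 Gy array of line 1, the log2 difference of the brightest probe set was -2.80.

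Among all tested genes, those whose profile over the 6 arrays lay nearest that of *Dck* were *Rag2*, *Socs1*, *Slain1*, *Trim14* and *Rgs14*. Likeness was measured as the root mean square difference of log2 signals, each gene centred on its own mean, which was 0.23, 0.26, 0.30, 0.32 and 0.33 in that order. The size of the fall enters this measure, and log2 differences of the 5 genes ran from -2.53 to -2.37, beside -2.53 for *Dck*. At 0 Gy each of the 5 was highest in line 2, whereas *Dck* was highest in line 3. *Rag2*, a subunit of the recombinase that cuts antigen receptor genes, had signals of 260.4, 355 and 234 at 1 Gy, against 1105, 1862 and 1558 at 0 Gy. *Socs1*, an inhibitor of cytokine signalling, had 52.9, 71.8 and 48.5 at 1 Gy, against 289, 376 and 329 at 0 Gy. All of its 1 Gy signals lay under 100. Of the other 9 members, the nearest to *Dck* was *Rrm2b*, in position 57 of 9663 with a difference of 0.58, followed by *Tk2* in position 211 with 0.78, and the farthest was *Tyms*, in position 9551.

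**Figure D2:**
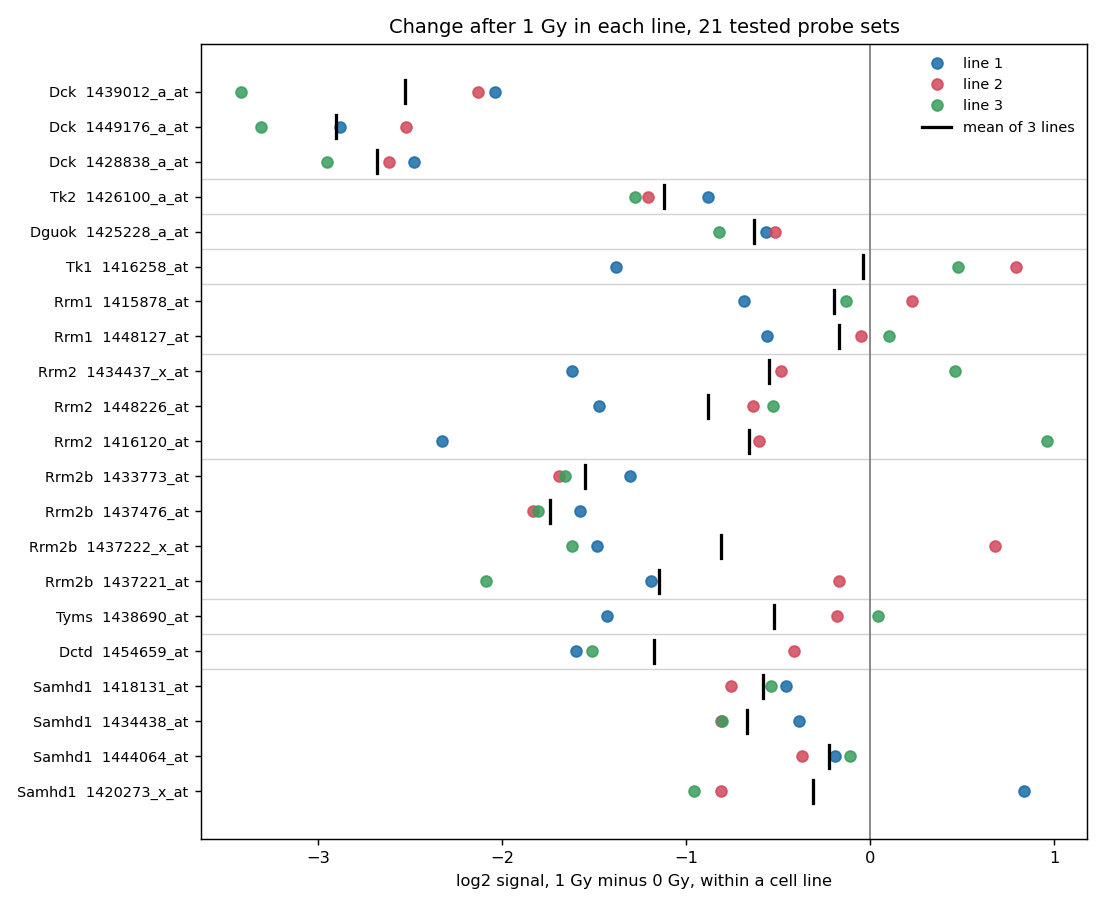
Difference in log2 signal between 1 Gy and 0 Gy within each cell line (horizontal axis, points) and its mean over the 3 lines (bars) for the 21 tested probe sets (vertical axis). All 9 points of Dck lie at -2.04 or below, and the points of Rrm2b lie below 0 except line 2 in 1 dim probe set.

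The mitochondrial kinases had lower signals at 1 Gy in every line, by less than *Dck*. *Tk2*, the thymidine kinase of mitochondria, read 383, 422.5 and 497 in lines 1, 2 and 3 at 1 Gy, against 705, 977 and 1204 at 0 Gy. The signal was 1.84-fold lower in line 1, 2.31-fold lower in line 2 and 2.42-fold lower in line 3, and the log2 difference was -1.12 (standard error 0.24). *Dguok*, which phosphorylates purine deoxynucleosides in mitochondria, read 487, 563 and 620.2 at 1 Gy, against 721, 806 and 1095 at 0 Gy. It was 1.48-fold, 1.43-fold and 1.77-fold lower in the 3 lines (log2 difference -0.63, standard error 0.21). For both kinases the doses did not overlap, and the order of the lines was the same at 1 Gy as at 0 Gy. Line 1 was lowest and line 3 highest. Each has 1 probe set on the array. Both were called lower with the cell line as a block and not with dose alone, and without the 0 Gy array of line 1 their log2 differences were -1.33 for *Tk2* and -0.76 for *Dguok*.

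*Tk1*, the cytosolic thymidine kinase of cycling cells, had no common direction. Its single probe set read 117, 802 and 222 in lines 1, 2 and 3 at 1 Gy, against 305, 464 and 159.8 at 0 Gy. Line 1 was thus 2.60-fold lower after irradiation, and lines 2 and 3 were higher by 0.79 and 0.48 on the log2 scale. The mean log2 difference was -0.038 with a standard error of 0.77, or 0.46 with the line in the fit. Its sign turned to positive after quantile normalization (0.065), after scaling to a common median (0.011) and without the 0 Gy array of line 1 (0.017).

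The upstream sequences of the 3 salvage kinases that were lower in every line are shown because they differ in the GC box, the short motif bound by factors such as Sp1. RefSeq (GRCm38.p6) gave a promoter for 9 of the 10 genes, all but *Rrm2b*. The stretches below are the bases before the annotated gene, 5′ to 3′ on the gene's strand, with each GC box (GGGCGG on either strand) in capitals. The *Dck* stretch lies at chr5:88764763-88765012 (plus strand), that of *Tk2* at chr8:104248593-104248808 (minus strand) and that of *Dguok* at chr6:83506970-83507219 (minus strand).
Dck: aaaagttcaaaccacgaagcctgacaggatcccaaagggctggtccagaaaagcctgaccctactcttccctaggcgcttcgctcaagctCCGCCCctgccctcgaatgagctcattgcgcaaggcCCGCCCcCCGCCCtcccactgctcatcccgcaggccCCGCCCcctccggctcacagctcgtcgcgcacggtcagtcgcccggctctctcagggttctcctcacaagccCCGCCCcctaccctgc
Tk2: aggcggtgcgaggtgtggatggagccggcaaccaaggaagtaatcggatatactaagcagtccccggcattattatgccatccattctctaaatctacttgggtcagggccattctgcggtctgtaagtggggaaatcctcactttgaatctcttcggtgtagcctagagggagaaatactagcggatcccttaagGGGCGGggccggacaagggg
Dguok: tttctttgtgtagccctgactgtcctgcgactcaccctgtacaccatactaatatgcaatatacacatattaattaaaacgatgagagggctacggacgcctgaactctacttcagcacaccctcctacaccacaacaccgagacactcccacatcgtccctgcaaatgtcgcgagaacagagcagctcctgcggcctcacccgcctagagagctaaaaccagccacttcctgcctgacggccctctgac

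*Dck* has 5 GC boxes in its 250 bases, a number reached by 1.93% of the 32851 mouse promoters of the same length, whereas *Tk2* has 2 in its full 250 bases (1 in the stretch printed) and *Dguok* 0. At least 1 GC box is present in 32.7% of promoters. Among the other members searched, *Rrm2* has 2, *Tk1*, *Samhd1*, *Tyms* and 2 of 3 annotated starts of *Dctd* have 1, and *Rrm1* has 0. G and C make up 66.0% of the *Dck* window, 55.6% for *Tk2*, 52.4% for *Dguok* and 72.4% for *Rrm2*. The median over all promoters is 52.4%. The same windows were searched, on both strands, for the CCAAT box (CCAAT, in 33.8% of promoters), E2F sites (TTTCGCGC, TTTGGCGC or TTTCCCGC, in 1.53%), the CHR element (TTTGAA, in 16.0%), the NF-κB site (in 0.356%), the TATA box (TATAAA, in 12.4%) and the p53 decamer (in 7.13%). The promoters of *Dck* and *Tk2* each hold 1 CHR element. CCAAT boxes were found in *Rrm1* (2), *Rrm2* (1) and 2 of 3 annotated starts of *Dctd* (1 each), and a p53 decamer in *Tyms* (1). No member window held an E2F, NF-κB or TATA match, and no motifs overlapped. A match is a description of the letters, and *Rrm2b* was not searched.

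The subunits of ribonucleotide reductase differed from each other. *Rrm2b*, the small subunit of resting cells, read 1049.7, 1135 and 1182 in lines 1, 2 and 3 at 1 Gy, against 2595, 3659 and 3733 at 0 Gy. The irradiated lines were closely alike, with the highest 1.13 times the lowest, and all lay below every mock-irradiated array. *Rrm2b* was 2.47-fold lower in line 1, 3.23-fold lower in line 2 and 3.16-fold lower in line 3 (log2 difference -1.55, standard error 0.19). A further probe set read 337, 417 and 482 at 1 Gy, against 1004, 1487 and 1688 at 0 Gy (log2 difference -1.74, standard error 0.25). The remaining pair of *Rrm2b* probe sets was dim, at 41.4 to 74.5 at 1 Gy and 46.6 to 206 at 0 Gy, and 1 of them was higher in line 2 after irradiation (74.5 against 46.6). By size of fall *Rrm2b* ranked 169 among the 9664 tested genes. Without the 0 Gy array of line 1, the log2 difference of its brightest probe set was -1.72.

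*Rrm2*, the small subunit of S phase, varied between lines more than between doses. Its brightest probe set read 1313, 352 and 412 in lines 1, 2 and 3 at 1 Gy, against 4035, 493 and 299 at 0 Gy. Line 1 was highest at both doses, and at 0 Gy it stood 13.5-fold above line 3. Within lines, the signal was 3.07-fold lower in line 1 and 1.40-fold lower in line 2, and line 3 was higher by 0.46 on the log2 scale. Its 3 probe sets were lower in lines 1 and 2 and did not agree on line 3, where the difference was 0.46, -0.53 and 0.96. The mean log2 difference of the brightest was -0.55 (standard error 1.07, or 0.41 with the line in the fit). It was 0.58 without the 0 Gy array of line 1. That probe set is of the kind (_x_at) whose probes may also bind other transcripts.

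*Rrm1*, the large subunit, differed little between doses outside line 1. It read 1644, 1659.9 and 1036 in lines 1, 2 and 3 at 1 Gy, against 2646, 1417 and 1133 at 0 Gy, a log2 difference of -0.20 (standard error 0.37). Line 1 was 1.61-fold lower, line 3 was 1.09-fold lower and line 2 was higher by 0.23 on the log2 scale. A second probe set gave 739, 544 and 629 at 1 Gy, against 1088, 563 and 587 at 0 Gy. Without the 0 Gy array of line 1 the log2 difference of *Rrm1* was 0.16, and another probe set stayed under 100 on all arrays and was not tested.

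*Tyms* and *Dctd*, the steps that lead to thymidylate, had dim probe sets. The probe set that *Tyms* shares with its pseudogene was brighter on every array than the *Tyms* probe sets described here, and since it cannot be assigned to either it was not used, so that the level of *Tyms* remains unsettled. The brightest probe set under the name of *Tyms* alone read 46.3, 46.2 and 1.88 in lines 1, 2 and 3 at 1 Gy, against 125, 52.4 and 1.83 at 0 Gy, and was tested only because of the 0 Gy array of line 1. Its other 3 probe sets stayed under 100 on all arrays. *Dctd* read 40.5, 21.5 and 25.0 at 1 Gy, against 122.6, 28.6 and 71.4 at 0 Gy, and again only the 0 Gy array of line 1 reached 100. It was lower in each line (3.03-fold, 1.33-fold and 2.85-fold), but the doses overlapped. Both passed the filter through that array alone, and neither was tested once the array was left out. The log2 difference was -0.52 for *Tyms* (standard error 1.98, or 0.32 with the line in the fit). It was -1.17 for *Dctd* (standard error 0.56, or 0.28 with the line in the fit).

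*Samhd1*, the dNTP triphosphohydrolase known for restricting retroviruses, was lower in each line by a similar amount. It read 1853, 1949 and 672 in lines 1, 2 and 3 at 1 Gy, against 2545, 3297 and 977 at 0 Gy. The doses overlapped because the lines themselves differed by up to 3.38-fold at 0 Gy, with line 3 lowest at both doses. Within lines the signal was 1.37-fold, 1.69-fold and 1.45-fold lower. The log2 difference of -0.59 had a standard error of 0.61 without the line in the fit and 0.12 with it. Without the 0 Gy array of line 1 the log2 difference was -0.42. Of the other probe sets, the 2 brighter ones were also lower in 3 of 3 lines (log2 differences of -0.67 and -0.22), and the 2 that stayed near or under 100 were higher in line 1 and lower in lines 2 and 3.

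The members peaked on different arrays. *Rrm1*, *Rrm2*, *Tyms* and *Dctd* had their highest signal on the 0 Gy array of line 1, the array on which the S phase genes were highest, and *Dck*, *Tk2*, *Dguok* and *Rrm2b* had their highest on the 0 Gy array of line 3. *Samhd1* was highest in line 2 at 0 Gy and *Tk1* in line 2 at 1 Gy. The proliferation marker *Mki67* had signals of 2279, 1008 and 57.0 in lines 1, 2 and 3 at 1 Gy, against 4665, 1546 and 91.7 at 0 Gy, so that line 3 had the least of it at both doses. *Ccna2*, the cyclin of S phase and G2, read 716, 362 and 26.7 at 1 Gy, against 2237, 656 and 72.0 at 0 Gy. Line 3, which had the lowest *Ccna2* too, had the largest fall of *Dck* in its brightest probe set. Within line 3 *Mki67* and *Ccna2* were also lower at 1 Gy, with log2 differences of -0.69 and -1.43. Of the 21 S phase and replication genes, 0 were called in either direction with dose alone (1 lower and 0 higher at an unadjusted p under 0.05, limma), whereas the fit with the line as a block called 4 lower, *Ccna2*, *Mki67*, *Mcm2* and *Gins2*, with 0 higher. Among all tested genes, 14.7% were called lower with the block. The median log2 difference of the S phase list, taken over the means of 3 lines, was -0.61. Line by line, its summed signal was 29804, 21338 and 16741 at 1 Gy, against 52827, 22434 and 16942 at 0 Gy. The sums thus differed between doses mainly in line 1. In 3 of 3 lines 11 of the S phase genes were lower, as were 41.4% of tested genes. *Ccne1*, *Ccne2*, *Cdc6* and *E2f1* reached 100 only at 0 Gy, the dose at which their means were higher. What part the share of cycling cells has in the changes of the members was not tested.

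**Figure D3:**
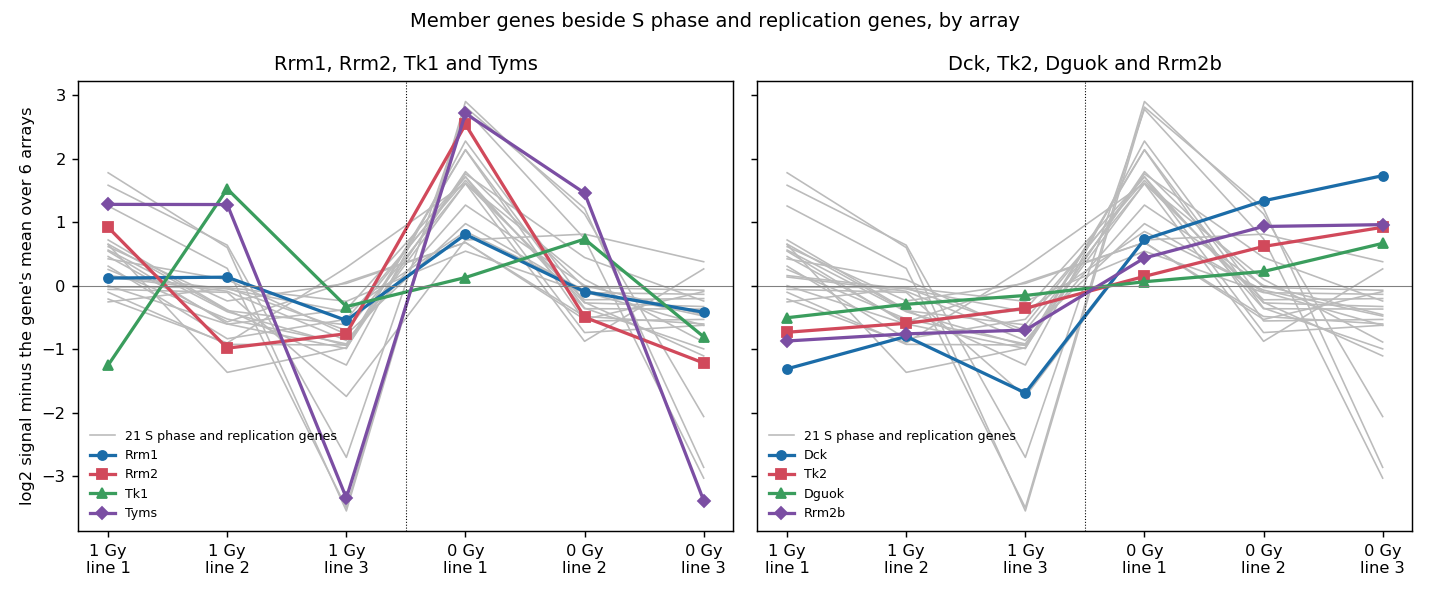
Log2 signal of each gene minus its mean over the 6 arrays (vertical axis) on each array (horizontal axis, 1 Gy left of the dotted line and 0 Gy right of it), for 21 S phase and replication genes (grey) and 8 members (coloured). Rrm2, Rrm1 and Tyms peak with the grey genes on the 0 Gy array of line 1, whereas Dck, Tk2, Dguok and Rrm2b are below their means on all 3 arrays at 1 Gy and above on all 3 at 0 Gy.

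The lists from here on were chosen with earlier results of these data known, so p-values of their genes are given as a description. Other genes of nucleotide metabolism were read against all tested genes, of which 60.3% had a mean log2 difference below 0. With dose alone 3.24% were called lower and 2.12% higher, and with the block 14.7% and 6.63%. At an unadjusted p under 0.05, 16.7% were lower and 8.39% higher (limma, dose alone). Of 14 tested genes of pyrimidine synthesis and salvage, 0 were called lower and 0 higher with dose alone (6 and 0 at an unadjusted p under 0.05, limma), all 14 had a mean log2 difference below 0, and the median was -0.53. With the cell line as a block, 3 fell, namely *Dut*, *Dtymk* and *Dhodh*. Of the 14, *Cmpk2* passed the filter only through the 0 Gy array of line 1, at 102 against 81.1 or less on the other arrays. *Dut*, the dUTPase that keeps uracil out of DNA, read 478, 149.6 and 45.5 in lines 1, 2 and 3 at 1 Gy, against 2153, 466.5 and 242 at 0 Gy, a log2 difference of -2.07 (limma with the line as a block, adjusted p = 0.0121, and 0.338 without it). *Dtymk*, the thymidylate kinase that acts on the products of Tk1, Tk2 and Tyms, read 1457, 1315 and 927 at 1 Gy, against 2376, 1942 and 1769 at 0 Gy (adjusted p = 0.0302 with the block and 0.127 without, limma). Both are named after their values were seen. Of 18 tested genes of purine synthesis and salvage, 0 were called in either direction (5 lower and 0 higher at an unadjusted p under 0.05, limma), and 2 fell with the block, *Pfas* and *Ppat* of the de novo pathway. Their median was -0.45. The 0 Gy array of line 1 held the highest signal of 9 of the 14 pyrimidine genes. It did so for 11 of the 18 purine genes and for 17.6% of all tested genes. Summed pyrimidine signals were 25358, 26258 and 22277 in lines 1, 2 and 3 at 1 Gy, against 39971, 32198 and 28429 at 0 Gy. Summed purine signals were 31203, 29549 and 27311 at 1 Gy, against 41912, 30480 and 28771 at 0 Gy. What part that array has in the 2 medians was not tested.

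Genes at the edges of the pathway went both ways. Of 7 tested folate genes, 0 were called with dose alone (0 lower and 2 higher at an unadjusted p under 0.05, limma), and with the block 1 fell, the folate carrier *Slc19a1*, and 2 rose. Those were *Shmt2* and *Mthfd2*, enzymes of one-carbon metabolism in mitochondria. *Mthfd2* read 2622, 2438 and 3314 in lines 1, 2 and 3 at 1 Gy, against 1722, 801 and 1286 at 0 Gy (log2 difference 1.19, limma adjusted p = 0.0344 with the block and 0.0902 without). Of 9 tested nucleotidases and pool sanitation enzymes, 0 were called with dose alone (2 lower and 0 higher at an unadjusted p under 0.05, limma) and 2 fell with the block, the pyrimidine nucleotidase *Nt5c3* and the oxidised nucleotide hydrolase *Nudt1*. Of 5 tested transporters, 0 were called with dose alone (0 lower and 1 higher at an unadjusted p under 0.05, limma), and with the block 1 was called higher, the equilibrative nucleoside transporter *Slc29a2*, at 140.1, 65.5 and 96.4 at 1 Gy, against 50.5, 15.1 and 18.0 at 0 Gy. It passed the filter only through the 1 Gy array of line 1, its other 5 signals lay under 100, and its log2 difference of 2.00 is set against dim signals.

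Of 10 tested genes of mitochondrial DNA maintenance, which depends on Tk2, Dguok and Rrm2b for its dNTPs, 1 fell with dose alone and with the block, and 0 rose. It was *Primpol*, a primase and polymerase of nuclear and mitochondrial DNA, which read 289, 267 and 261 in lines 1, 2 and 3 at 1 Gy, against 446.5, 554 and 435 at 0 Gy (log2 difference -0.81, standard error 0.15, limma adjusted p = 0.0461). The median of this list was -0.26.

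Known p53 target genes, the class to which *Rrm2b* is usually assigned, mostly had higher signals. Of 15 tested, 2 rose and 0 fell with dose alone, 8 were higher at an unadjusted p under 0.05, and blocking on the line gave 9 that rose and 1 that fell, *Xpc* (limma). Among all tested genes, 2.12% were called higher with dose alone and 6.63% with the block, and 8.39% were higher at an unadjusted p under 0.05 (limma). The median log2 difference of the p53 targets was 1.08, against -1.55 for *Rrm2b*. The 2 that rose without the block were *Polk*, a translesion polymerase, with 3260.4, 3445 and 3537 in lines 1, 2 and 3 at 1 Gy against 1569.8, 1370.4 and 1993 at 0 Gy (limma adjusted p = 0.0362), and the nuclease gene *Aen*, with 4635, 4651 and 5457 against 1839, 1489 and 2576 (limma adjusted p = 0.0384). Leaving out any 1 array or line ended the calls of *Primpol*, *Polk* and *Aen*. *Cdkn1a*, the cell cycle inhibitor p21, named after its values were seen, read 6054, 9549 and 13879 at 1 Gy, against 2855, 3339 and 6586 at 0 Gy. In each of the 3 lines, *Rrm2b* was thus lower at 1 Gy while *Polk*, *Aen* and *Cdkn1a* were higher. Of the 15 targets, 12 were higher in each line and 1, *Xpc*, was lower in each line, and 3 had a mean log2 difference below 0.

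**Figure D4:**
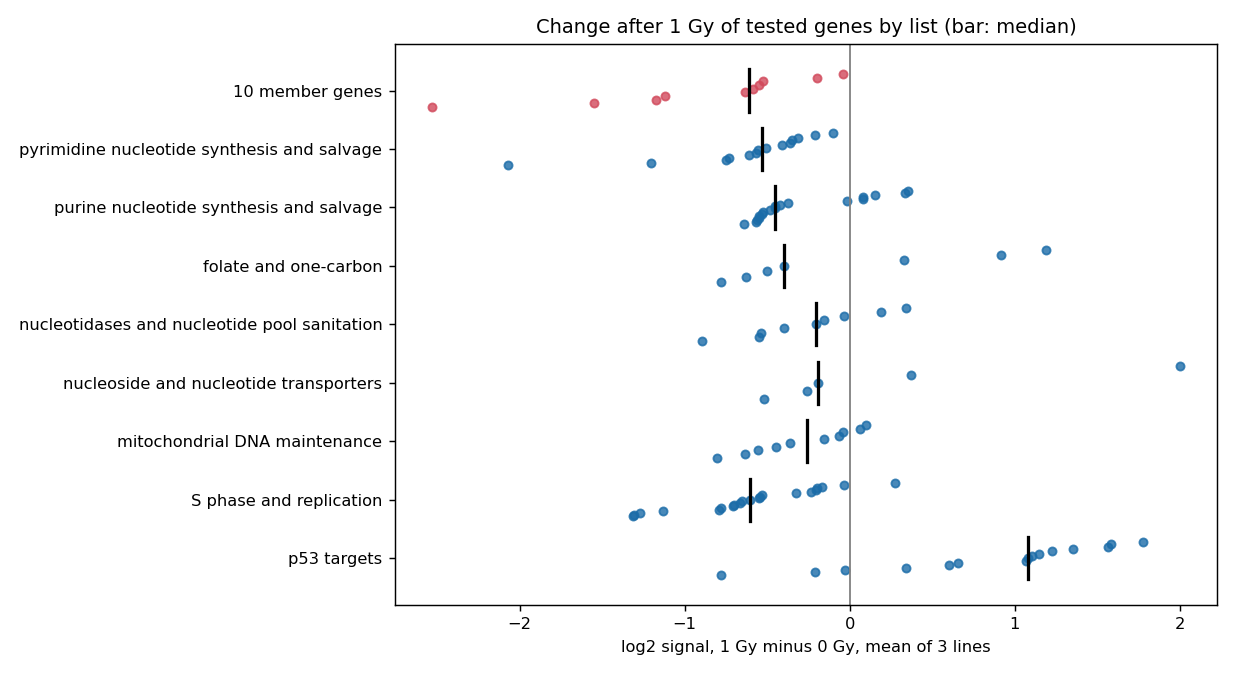
Mean log2 difference between 1 Gy and 0 Gy (horizontal axis) of each tested gene (points) and the median of its list (bars), for the 10 member genes and 8 lists of related genes (vertical axis). The median is -0.61 for the members and 1.08 for the p53 targets, and Dck at -2.53 is the lowest point of all lists.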

How the data were processed

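RNA of 6 samples was hybridized to Affymetrix mouse arrays. The authors deposited 1 linear intensity signal per probe set and array. The tool named in the submitters' processing notes is MAS5, and the trimmed mean of each array is 500. The study's methods describe RMA with quantile normalization, and no such values were used here. In this report a signal under 1 was set to 1, log2 was taken, 64 controls were removed, and limma was run on the probe sets that reached 100 somewhere (version 3.58.1, R 4.3.3) and Benjamini-Hochberg adjustment. The fit was checked on simulated data. Each gene is represented by the brightest of its probe sets that the platform annotation gives a single name (34945 probe sets have 1, 932 several and 9160 none listed). The 10 members and all gene lists were chosen with earlier results of these data known. Named genes are the members, the called genes of each list with the largest change and the 5 genes nearest to *Dck*, and others are marked or were called only with the block.

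The series' design gives 3 wild type lines, each with both doses, so the shared numbers mark lines. Deviations from the dose means correlated at 0.668 to 0.781 between arrays with the same number and at -0.495 to -0.0525 between other arrays, which pairs them, and a replicate block for the line was fitted as an alternative. The lines were derived separately. Without the block, p-values set the dose difference against the spread between lines. With the block, they set it against how far that difference varies among the lines. With 3 arrays a dose, precision is limited by their number. Other alternatives changed the filter, the scaling, the offset or floor, limma's variance prior, the summary of a gene's probe sets and the test (the ANOVA of the methods), or left out single arrays or whole lines. The last was added after seeing the data.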

Additional observations from a re-analysis of the deposited data

How the results depend on the processing

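Over all probe sets, 556 were called lower and 419 higher. With the cell line as a replicate block these counts were 2499 and 1475. Without the filter they were 0 and 1, while 3026 and 2365 had an unadjusted limma p below 0.05. Setting signals under 100 to 100 gave 841 and 635, the methods' test 1717 and 1122, and that test after Benjamini-Hochberg adjustment 148 and 146. A trend in the variance prior gave 690 higher. Quantile normalization gave 458 lower and 500 higher, and scaling to a common median 274 and 366. Without single arrays or lines, 0 to 47 were lower and 0 to 73 higher, with 1884 to 2692 lower at an unadjusted p under 0.05 (limma).

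Of the 10 genes, 2 were called lower. The count was 5 with the replicate block, 0 without the filter, 4 by the methods' test, 0 by that test after adjustment, and 0 to 1 without single arrays or lines, where 3 to 5 had an unadjusted p under 0.05 (limma). No setting called a member higher. Of 20 settings, the call was lost in 11 for *Dck* and 11 for *Rrm2b*, and gained in 6 for *Tk2*, 2 for *Dguok* and 1 for *Samhd1*. *Dck*, *Rrm2b*, *Tk2*, *Dguok*, *Samhd1* and *Dctd* were lower in every setting that tested them, at -2.80 to -2.09 for *Dck* and -1.72 to -1.31 for *Rrm2b*. The sign of *Tk1* turned under quantile normalization (0.065), median scaling (0.011) and without arrays or lines (-0.81 to 0.63, with 0.02, 0.12, 0.32 and 0.58 among them). Without single arrays or lines *Rrm1* spanned -0.45 to 0.16 (with 0.03 and 0.05), *Rrm2* -1.29 to 0.58 and *Tyms* -2.35 to 1.02 (with 0.07), and no other setting turned their signs. Of the related genes in the lists, 1 was called lower and 2 higher, 14 and 12 with the replicate block, and 0 and 0 without single arrays or lines. Fewer arrays leave fewer degrees of freedom, and the other causes were not tested.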
